A study of Homo sapiens with 36 samples.

Results

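Binding of HIF-α at the genes of 35 JmjC demethylases and nucleic acid dioxygenases was read from Cut&Run peak lists of 786-O cells, a clear cell renal cell carcinoma line. A gene had a site in a library when the summit of a peak, its point of highest signal, lay in the GENCODE gene body or within 10 kb on either side. All 35 members were found among the 20033 protein-coding genes of GENCODE release 44 (hg38), and their windows covered 4.17 Mb. A total of 6 lines were compared, each with 3 anti-V5 libraries and a matched IgG library for each of them as the control in peak calling. Wild-type (WT) cells carry no V5 tag and give the background of the antibody. HIF-2α KIN is a single clone, A31, in which the endogenous HIF-2α is fused to V5 and Halo. The other 4 lines stably express a V5-Halo fusion from an L30 promoter, in addition to the cells' own HIF-2α. These fusions were HIF-2α, HIF-1α, HIF-2α/1α (residues 1 to 365 of HIF-2α joined to residues 364 to 826 of HIF-1α) and HIF-1α/2α (residues 1 to 363 of HIF-1α joined to residues 366 to 870 of HIF-2α). The N-terminal part holds the DNA-binding and dimerization domains (DBD here) and the C-terminal part the intrinsically disordered region (IDR). No untagged line with the L30 promoter was analysed here, and the labels do not say whether replicates were separate cultures, so that the p-values measure the spread between libraries only.

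JmjC demethylases and the TET and AlkB enzymes share a catalytic core that uses iron, oxygen and 2-oxoglutarate. JmjC demethylases remove methyl groups from histone lysines, TET enzymes oxidize 5-methylcytosine in DNA, and AlkB enzymes act on methylated bases of DNA and RNA. HIF-1α and HIF-2α pair with HIF-1β and bind the hypoxia response element (HRE), a short motif searched here as ACGTG or GCGTG on either strand. In renal carcinoma cells without a working VHL protein, HIF-α is not degraded when oxygen is present. Some members, KDM3A and KDM4B among them, are long known as hypoxia-induced genes.

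In the windows of 6 members, 7 regions were called in 15 of 15 tagged libraries and in no WT library. They are shown by the HRE nearest to the summit, with the motif or its reverse complement in capitals, read 5′ to 3′ on the plus strand, except that of KDM2B, which is on the minus strand. The stretches lie at chr19:4968807-4968861 (KDM4B), chr2:86441335-86441359 (KDM3A), chr17:7835851-7835905 (KDM6B), chr17:18183410-18183464 (ALKBH5 start site), chr12:121581007-121581031 (KDM2B), chr9:6757669-6757693 (KDM4C) and chr17:18188270-18188324 (ALKBH5 intron) of hg38.
KDM4B, upstream flank: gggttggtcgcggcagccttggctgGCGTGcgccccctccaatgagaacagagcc
KDM3A, 5′ UTR: gggaggctgtGCGTGtcttgtgaga
KDM6B, intron: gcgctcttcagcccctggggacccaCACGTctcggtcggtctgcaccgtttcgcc
ALKBH5, start site: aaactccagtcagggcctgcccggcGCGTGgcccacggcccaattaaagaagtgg
KDM2B, start site: tatttcctgtACGTGtgtgtgtcca
KDM4C, 5′ UTR: gACGTGtggcGCGTGgactacatca
ALKBH5, intron: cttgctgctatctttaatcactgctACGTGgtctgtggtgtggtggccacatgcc
The middle of the motif was 35 bp from the summit at KDM4B, 25 bp at KDM3A, 40 bp at KDM6B, 49 bp at the ALKBH5 start site, 82 bp at KDM4C, 105 bp at KDM2B and 170 bp in the ALKBH5 intron. A match is a description of the letters and is not shown to be the bound site.

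The 18 lists held 213711 peaks, 3984 to 20808 in the tagged lists. WT replicate 2 stood apart from the other WT libraries, with 9508 peaks against 392 and 743. Replicate 2 had the longest list in every tagged line too. It held 13193 peaks for HIF-2α KIN, 20651 for HIF-2α, 20808 for HIF-2α/1α, 20572 for HIF-1α and 18999 for HIF-1α/2α. The reason was not tested. Depth, calculated from the fold and −log10 p of peaks with a −log10 p below 100, was 0.241 to 0.536 fragments per base in 17 lists. It was not solved in HIF-2α/1α replicate 2. A gene without a peak was not called at this depth, which does not show that binding was absent.

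The share of members with a site was higher in the tagged libraries than in WT, by 39.6 percentage points on average, and in every tagged line it was above the share of all genes. Within replicates 1, 2 and 3 the difference from WT was 47.4, 29.1 and 42.3 points, beside 32.5, 22.8 and 30.2 over all genes. With lists cut to equal length, the shorter WT lists kept whole, it was 26.3 points for members and 10.4 for all genes. WT libraries had a site at 0%, 31.4% and 2.86% of members in replicates 1, 2 and 3. The share was 31.4%, 40.0% and 34.3% for HIF-2α KIN, and 40.0%, 60.0% and 31.4% for HIF-2α. It was 54.3%, 74.3% and 48.6% for HIF-2α/1α, 57.1%, 71.4% and 62.9% for HIF-1α and 54.3%, 57.1% and 48.6% for HIF-1α/2α. In every line replicate 2 had the highest share, for members as for all genes. Only WT replicate 2 overlapped the tagged libraries, at the level of the lowest of them. The means were 11.4% ± 17.4 of members in WT, 35.2% ± 4.36 for HIF-2α KIN, 43.8% ± 14.7 for HIF-2α, 59.0% ± 13.5 for HIF-2α/1α, 63.8% ± 7.19 for HIF-1α and 53.3% ± 4.36 for HIF-1α/2α (SD, n = 3). Over all genes the means were 9.68%, 24.2%, 30.6%, 46.8%, 48.8% and 40.4% in the same order. Ordered by level, neighbouring tagged lines differed by less than the larger SD of the pair, and the order of the lines was that of their mean list length. Cut to the top 3984 peaks of each list, the number of members with a site in at least 2 of 3 libraries lay between 10 and 12 in all 5 tagged lines, 28.6% to 34.3% of members, beside 13.1% to 17.1% of all genes. Window length also enters these shares: the median window was 75.4 kb for members and 47.5 kb for all genes. Per Mb of window, members held 5.51 ± 1.73 peaks in HIF-2α KIN and 10.5 ± 1.92 for HIF-1α, against 3.85 ± 2.10 and 8.63 ± 1.33 over all genes (SD, n = 3).

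**Figure D1:**
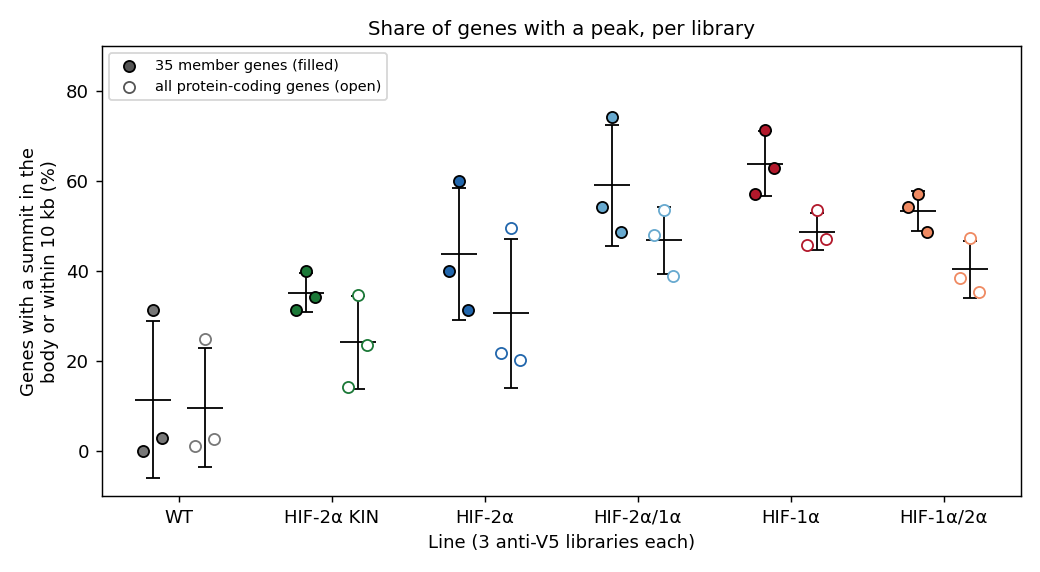
Percent of the 35 members (filled) and of all protein-coding genes (open) with a summit in the gene body or within 10 kb, for each of the 3 anti-V5 libraries of a line. Horizontal lines and bars give the mean and SD. WT replicate 2, at 31.4% of members, is the WT library at the level of the tagged ones.

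A site in at least 2 of 3 libraries was found at 1 member in WT (2.76% of all genes), 11 for HIF-2α KIN (21.0%), 14 for HIF-2α (25.7%), 21 for HIF-2α/1α (46.4%), 23 for HIF-1α (48.2%) and 19 for HIF-1α/2α (38.6%). The 14 members of HIF-2α fell to 9 without replicate 2 of that line, where both remaining libraries had to hold a site. Over all genes the number fell from 5141 to 2865. The one WT member was KDM4B, through an intronic region at chr19:4976412-4977783 that was called in WT replicates 2 and 3 with folds of 13.1 and 6.35. This region lay 7608 bp from a KDM4B start site, apart from the start-site region described below.

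There were 9 members with a site in 15 of 15 tagged libraries, 25.7% of members where 8.23% of all genes did. They were KDM2B, which removes methyl groups from histone H3 lysine 36 and belongs to a variant Polycomb complex, KDM3A, an H3 lysine 9 demethylase, KDM4B and KDM4C, which act on trimethylated lysine 9, KDM6B, an H3 lysine 27 demethylase, KDM7A, JMJD6, and the RNA demethylases FTO and ALKBH5. TET2, an enzyme of DNA demethylation, followed with 14 libraries, KDM8 with 13, KDM4A with 12, TET1 with 11 and KDM2A with 9. Of these, KDM8 and KDM4A also had a site in WT replicate 2. At the other end, KDM4D, RIOX1, HSPBAP1, TET3 and ALKBH3 had no site in any tagged library, 14.3% of members where 24.3% of all genes had none. TET3 had a site in WT replicate 2 alone.

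By family, the histone H3 lysine 4 demethylases had few sites: KDM5A and KDM5C were called in 1 tagged library each and KDM5B in 5, a median of 1 of 15. The 4 KDM4 genes had a median of 13.5, the 5 genes of the KDM2 and KDM7 group 9, the 3 TET genes 11 and the 9 AlkB genes 6, beside a median of 4 over all genes. Some paralogs stood far apart in number of libraries. KDM6B had 2 to 7 peaks in every tagged library, and KDM6A, its paralog on the X chromosome, had 1 peak in HIF-2α/1α replicate 2. Likewise KDM3A was called in 15 tagged libraries and KDM3B in 2. Of the remaining members, ALKBH1 had a site in 1 tagged library, and sites in 4 to 8 were found at JMJD1C, PHF2, PHF8, RIOX2, JMJD4, ALKBH2, ALKBH4, ALKBH6, ALKBH7 and ALKBH8.

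**Figure D2:**
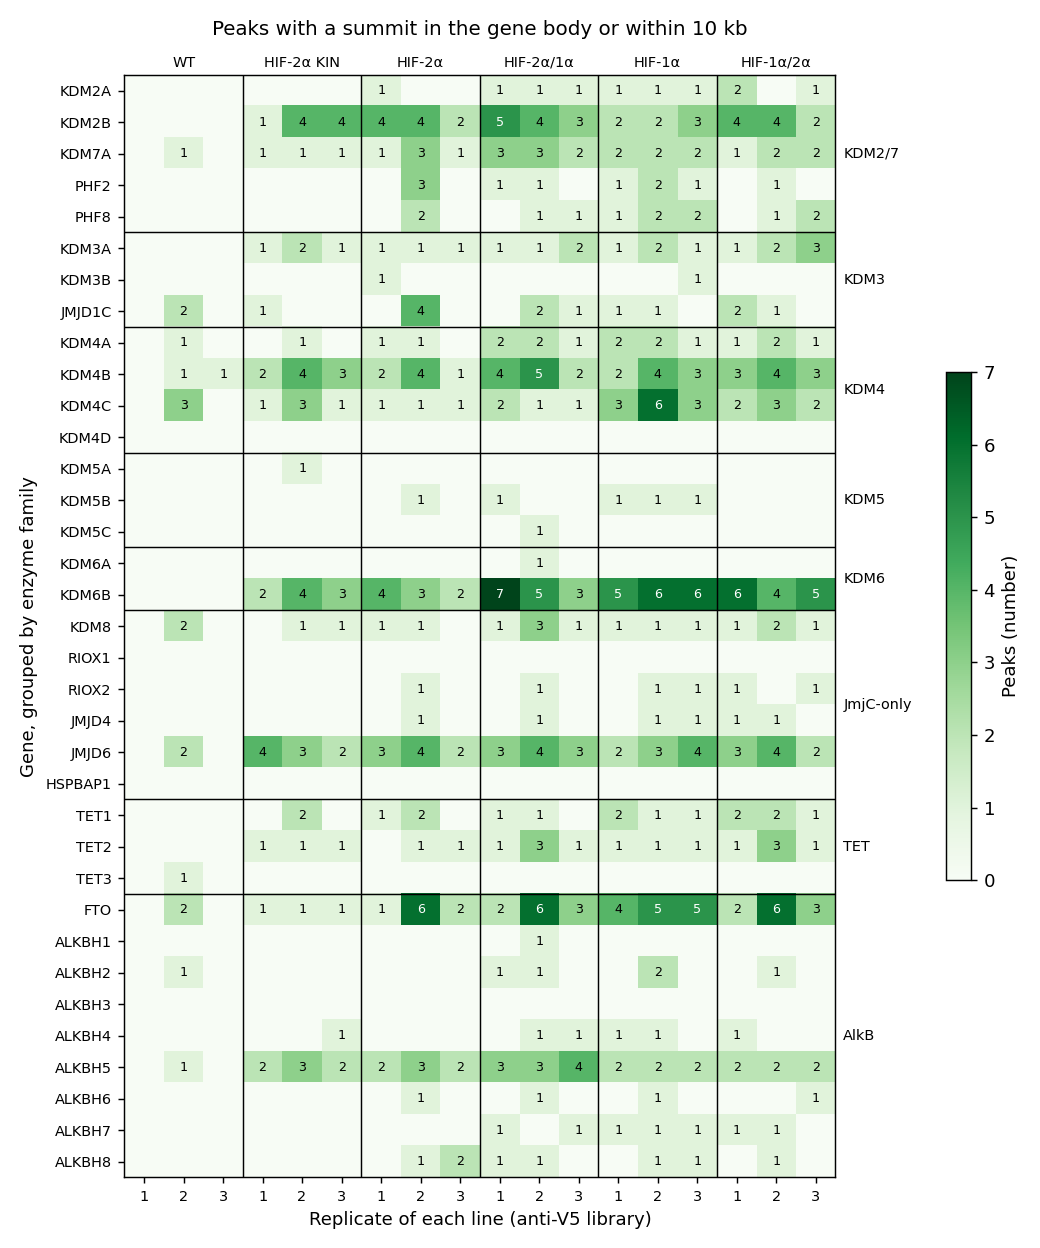
Number of peaks with a summit in the gene body or within 10 kb, for each member (rows, by family) in each of the 18 anti-V5 libraries (columns, 3 replicates of 6 lines); blank cells hold no peak. KDM2B, KDM3A and KDM6B have peaks in all 15 tagged columns and in no WT column, and WT replicate 2 has peaks at 11 members.

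Gene by gene, KDM2B, KDM3A and KDM6B were called more often in tagged than in WT libraries (15 of 15 against 0 of 3, adjusted p = 0.0354, Fisher's exact test with Benjamini-Hochberg adjustment over all genes), 8.57% of members where 3.46% of all genes passed. Among all genes, only those with this pattern passed. Of the 9 members with a site in every tagged library, 6 also had one in WT, and for KDM4C, KDM7A, JMJD6, FTO and ALKBH5 this was in replicate 2 alone (adjusted p = 0.167). TET2, in 14 tagged and 0 WT libraries, had an adjusted p of 0.0820. No gene passed, member or other, when any 1 WT library was left out (adjusted p for KDM2B, KDM3A and KDM6B of 0.208, 0.106 and 0.205 without WT replicates 1, 2 and 3). Nor did any gene pass with gene bodies alone, with summits within 1 kb of a start site or in a test blocked by replicate number. Without 1 WT library or with the block, a site in every tagged and no WT library gives the smallest p possible. Since that p did not pass, these settings cannot decide whether the calls hold. With a −log10 q of at least 5 or with lists of equal length, 5 members passed (14.3%), where 4.19% and 2.96% of all genes did.

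Binding was next followed region by region. Peaks that overlapped across lists were merged, and 25783 consensus regions had a peak in at least 2 libraries. Of the 551 peaks in member windows, 64 were seen in 1 library only, and the others formed 58 regions at 25 members. Of the 58, 10 were called in 15 of 15 tagged libraries (6.67% of all regions were), and 7 of these in no WT library (adjusted p = 0.0263, Fisher's exact test with Benjamini-Hochberg adjustment over all regions), 12.1% of member regions where 4.66% of all regions passed. Without any 1 of the WT libraries, and in the test blocked by replicate number, the number that passed was 0 at members and 0 over all regions. Even a call in every tagged and no WT library did not pass there, so these settings cannot decide the point. The number was 4 of 71 (5.63%, beside 4.20% of all such regions) when summits widened by 100 bp were merged in place of whole peaks.

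The KDM4B start site ranked high by −log10 p in every tagged list. The region, chr19:4966211-4969287, had its summit 314 bp upstream of the annotated start of this H3 lysine 9 demethylase. Its fold enrichment over the local background was 24.4, 114 and 44.1 for HIF-2α KIN, 88.8, 37.9 and 14.8 for HIF-2α, 76.6, 51.3 and 67.4 for HIF-2α/1α, 25.5, 40.5 and 54.0 for HIF-1α, and 49.4, 62.6 and 45.8 for HIF-1α/2α (replicates 1, 2 and 3 here and below). The lines overlapped, and the lowest and highest values lay in the HIF-2α and HIF-2α KIN lines, both with the full HIF-2α. The region ranked between 11 and 169 by −log10 p in the tagged lists, with a median rank of 55, and took place 13 by median rank among the 1201 regions with the same pattern of calls. Its summit held 130 to 767 fragments in the 14 tagged lists that could be solved. The 767, in HIF-2α replicate 2, lay over a local background of 19.3 fragments and gave a fold of 37.9. In HIF-2α replicate 1, 257 fragments over 1.91 gave 88.8. The fold is the ratio of fragments to background after 1 is added to each.

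The KDM3A region, chr2:86439538-86441665, had its summit in the 5′ UTR of an annotated transcript, 49 bp from a start site. Its fold was 39.3, 33.7 and 20.4 for HIF-2α KIN, 30.2, 42.2 and 22.0 for HIF-2α, 61.2, 17.4 and 30.8 for HIF-2α/1α, 13.0, 51.0 and 38.6 for HIF-1α, and 61.4, 22.8 and 15.4 for HIF-1α/2α. Replicates of one line differed by as much as the lines did. The KDM6B region lay in an intron, at chr17:7833871-7837596, 1621 bp from its start site. The fold there was 21.8, 67.4 and 59.7 for HIF-2α KIN, 23.7, 78.7 and 25.7 for HIF-2α, 53.0, 109 and 87.7 for HIF-2α/1α, 48.8, 42.2 and 43.9 for HIF-1α, and 19.4, 39.5 and 43.2 for HIF-1α/2α. All 3 libraries of HIF-2α/1α lay above those of HIF-1α and HIF-1α/2α, while the HIF-2α libraries spanned both. The median ranks were 269.5 for KDM3A and 273.5 for KDM6B, places 123 and 127 of 1201, and the summits held 68 to 428 and 43 to 298 fragments. KDM6B had further regions, an intronic one at chr17:7841186-7845523 in 12 tagged libraries and one at chr17:7857077-7858864 in 14, the latter beyond the 3′ end of KDM6B and 57 bp from a start site of NAA38.

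ALKBH5, which removes N6-methyladenosine from RNA, had a pair of regions in every tagged library and neither of them in WT. At chr17:18182250-18184204, 342 bp upstream of the canonical start and within an intron of a longer transcript, the fold was 34.7, 22.3 and 20.0 for HIF-2α KIN, 35.2, 43.7 and 18.5 for HIF-2α, 49.4, 23.0 and 31.3 for HIF-2α/1α, 26.0, 56.4 and 21.5 for HIF-1α, and 16.9, 35.0 and 15.1 for HIF-1α/2α. No line stood apart. The intronic region at chr17:18187222-18188921, 4639 bp from the start, was weaker, with folds of 5.74 to 24.4 and a median of 9.88, and 13 to 68 fragments at the summit. Between them, a region at chr17:18184515-18186449 was called in 5 tagged libraries, 3 of HIF-2α/1α and 1 each of HIF-2α and HIF-2α KIN.

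At KDM2B the region chr12:121579668-121583169 spanned the start site, with the summit 101 bp upstream. The fold was 14.6, 35.6 and 37.1 for HIF-2α KIN, 17.3, 133 and 26.9 for HIF-2α, 46.0, 24.5 and 26.5 for HIF-2α/1α, 19.2, 13.0 and 37.6 for HIF-1α, and 20.9, 44.1 and 27.3 for HIF-1α/2α. The value of 133, in HIF-2α replicate 2, stood far above the next highest, 46.0. It came from 223 fragments at the summit over a local background of 0.683, with the same addition to both as at KDM4B. The lowest fold, 13.0 in HIF-1α replicate 2, came from 116 fragments over a background of 7.97. The order of the libraries by fold thus depends on the background as well as on the fragments. A further KDM2B region in an intron, chr12:121466994-121468332, was called in 14 of 15 tagged libraries and in no WT library, with a median fold of 15.5.

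KDM4C, a paralog of KDM4B, had its region at chr9:6756767-6759598, where the summit lay in the 5′ UTR of an annotated transcript, 107 bp from a start site. The fold was 6.85, 6.87 and 12.3 for HIF-2α KIN, 3.95, 15.9 and 18.3 for HIF-2α, 16.1, 48.0 and 29.3 for HIF-2α/1α, 27.3, 28.3 and 15.7 for HIF-1α, and 27.9, 33.5 and 33.7 for HIF-1α/2α. The 3 HIF-2α KIN libraries and HIF-2α replicate 1 gave the lowest values, and the HIF-2α KIN libraries did not overlap those of HIF-2α/1α, HIF-1α or HIF-1α/2α. All 3 HIF-2α libraries lay below those of HIF-1α/2α. The rank of the region ran from 541 to 5365 and the summit held 18 to 96 fragments. The endogenous protein gave 22, 43 and 34 fragments there and 225, 563 and 267 at KDM4B. Over the 7 regions the median of the median ranks was 357, beside 1059.5 over the 1201 regions, and the median of the median folds was 26.9 beside 19.9.

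**Figure D3:**
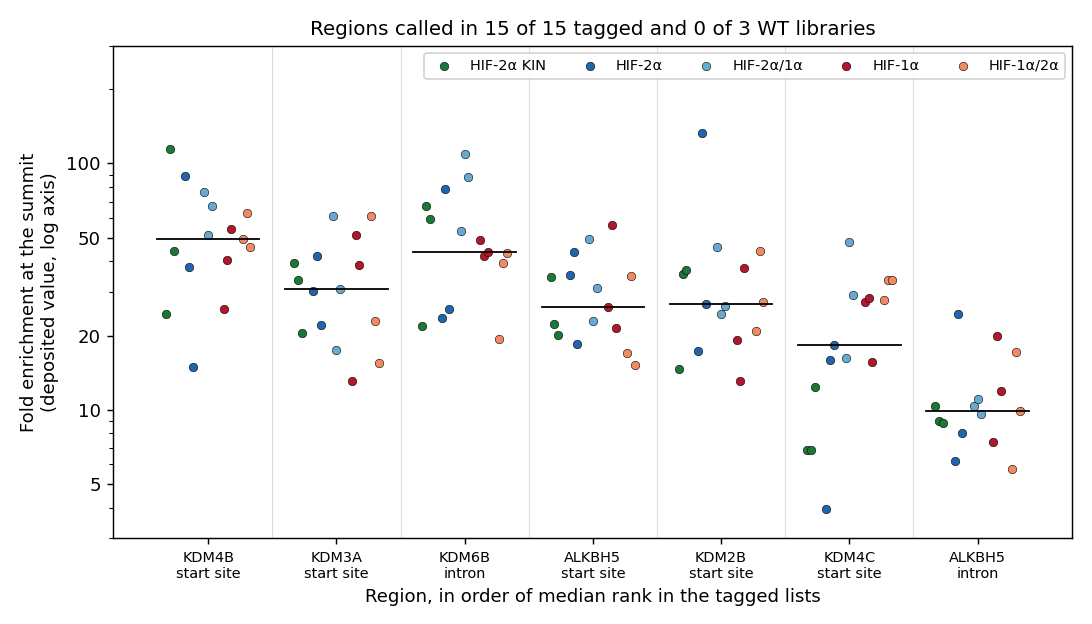
Deposited fold enrichment at the summit (log axis) of the 7 member regions found in all 15 tagged libraries and in none of the WT ones. Each point is 1 library, coloured by line, and the black line is the median of the 15 tagged libraries, which runs from 49.4 at KDM4B to 9.88 in the ALKBH5 intron. Most lines overlap, except that HIF-2α/1α lies above both lines with the HIF-1α DBD at KDM6B and that HIF-2α KIN lies below 3 of the exogenous lines at KDM4C.

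The other 3 regions found in all tagged libraries were also called in WT replicate 2. At the start site of KDM7A, a demethylase of H3 lysines 9 and 27, the fold was 10.8, 7.34 and 15.7 for HIF-2α KIN, 14.9, 18.9 and 9.36 for HIF-2α, 30.7, 23.1 and 28.7 for HIF-2α/1α, 41.1, 76.3 and 16.5 for HIF-1α, 13.3, 23.5 and 23.7 for HIF-1α/2α, and 3.24 in WT replicate 2. The WT value was below all tagged ones, at a rank of 9336.5 of 9508. JMJD6, a JmjC protein that hydroxylates lysines of splicing factors, had a region at its start site and one in its 3′ UTR, with median folds of 12.4 and 10.0 in the tagged lists. In WT replicate 2 their folds were 6.49 and 9.19, inside the range of the tagged libraries.

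TET2 and KDM8 had start-site regions in most tagged libraries and no WT library. The TET2 region, chr4:105146358-105147606, had a median fold of 13.8 over 14 libraries and was not called in HIF-2α replicate 1. That of KDM8 had a median fold of 13.9 over 13. Elsewhere in the KDM8 window, WT replicate 2 had peaks with folds of 10.5 and 5.75. TET1 had no peak within 1 kb of its GENCODE start site in any tagged library. Its main region lay 40307 bp inside the gene, where the RefSeq promoter table places further TET1 starts. The fold there was 25.2, 35.1 and 26.5 for HIF-1α, 10.9, 45.2 and 15.1 for HIF-1α/2α, 12.1 and 12.5 in the HIF-2α/1α libraries with a call, 9.68 in the one HIF-2α KIN library and 5.36 in the one HIF-2α library. HIF-1α and HIF-1α/2α overlapped, and HIF-1α/2α replicate 1 lay below both HIF-2α/1α values. FTO had a site in every tagged library through different regions: the most frequent, an intronic one, was called in 13 libraries, and the start site in 4.

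By position, 33 of the 58 regions had their summit in an intron, 8 in a 5′ UTR, 1 in a 3′ UTR, 11 upstream and 5 downstream of the gene. Of all 58, 29 (50.0%) lay within 1 kb of a protein-coding start site, beside 38.2% of all regions in gene windows. A site within 1 kb of the member's own start in all 15 tagged libraries was found for KDM2B, KDM3A, KDM4B, KDM4C, KDM7A, JMJD6 and ALKBH5, 20.0% of members where 2.52% of all genes had one. For 11 of the 58 regions the nearest start site was that of another gene. Such regions made up all of those at JMJD4 (nearest start SNAP47) and ALKBH4 (LRWD1), and part of those at ALKBH2 (UNG), JMJD6 (MXRA7, MFSD11), KDM4A (ST3GAL3), KDM6B (NAA38), JMJD1C (REEP3), KDM7A (PARP12) and TET1 (CCAR1).

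An HRE lay within 50 bp of the summit in 12 of the 58 member regions (20.7%), beside 15.5% in windows of the same width 1 kb away. Among all regions it was 24.3%, beside 14.2% in the neighbouring windows. The whole motif had to lie in the window, so that of the ALKBH5 start site, with its middle 49 bp away, was not counted. A region counted once, however many matches it held. The motif was found at 5 of the 10 member regions called in all tagged libraries (50.0%, beside 33.7% of all such regions) and at 7 of the other 48 (14.6%, beside 23.6%). Within 100 bp, 29 of the 58 regions held one (50.0%, beside 45.5%). The AP-1 motif (TGACTCA or its reverse complement TGAGTCA) lay within 50 bp of the summit in 2 member regions (3.45%, beside 8.27%). In the RefSeq promoter table for hg38, which holds a stretch around each annotated start, 32 members matched and 24 held an HRE (75.0%, beside 62.2% of 15345 genes).

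**Figure D4:**
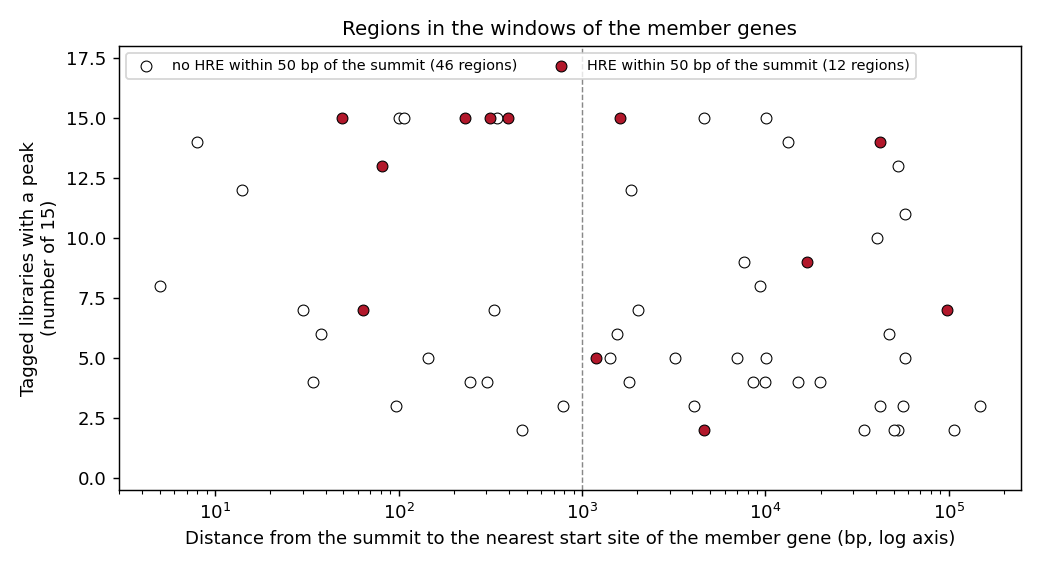
Each point is 1 of the 58 member regions, placed by the distance of its summit from the nearest start site of the member (log axis, bp) and by the number of tagged libraries with a peak. Filled points have an HRE within 50 bp of the summit; the dashed line is at 1 kb. The 10 regions at 15 libraries lie mostly left of the line, and 5 of them are filled.

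The exogenous lines were then compared by IDR and by DBD, 6 libraries against 6. The share of members with a site, HIF-2α IDR minus HIF-1α IDR, differed by −12.9 percentage points on average, and by −8.57, −14.3 and −15.7 within replicates 1, 2 and 3, beside −16.7, −5.01 and −15.2 over all genes. With lists of equal length the difference was −0.48 points for members and −2.55 for all genes. For the DBD, HIF-2α minus HIF-1α, the difference was −7.14 points, and −8.57, 2.86 and −15.7 within replicates, beside −7.10, 1.13 and −11.6 over all genes. The pooled SD within lines was 11.5 points. No gene passed for either domain (Fisher's exact test with Benjamini-Hochberg adjustment, 0% of all genes). At an unadjusted p under 0.05, 205 genes for the IDR and 41 for the DBD were counted, and no member. The lowest unadjusted p among members for the IDR was that of KDM2A (3 of 6 against 6 of 6 libraries, exact p = 0.182), followed by KDM5B and PHF2 among others (0.242). For the DBD it was ALKBH7, a mitochondrial AlkB protein (2 of 6 against 5 of 6, exact p = 0.242), then TET1 (0.455) and PHF8 (0.545).

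Among regions, 143 of all consensus regions had an unadjusted p under 0.05 for the DBD, 2 of them at members, and none passed the adjustment. Both were chosen here after their values were seen. An intronic KDM4C region, chr9:6878023-6878431, was called in all 6 libraries with the HIF-1α DBD, with folds of 5.47 to 12.9 and 17 to 35 fragments at the summit. It was called in none of the 6 with the HIF-2α DBD and in no HIF-2α KIN or WT library (exact p = 0.00216, adjusted p = 1). The opposite pattern was seen for an intronic KDM2B region, chr12:121577008-121577876, in 5 of 6 libraries with the HIF-2α DBD, 2 of HIF-2α KIN and none with the HIF-1α DBD, at folds of 2.90 to 7.30 (exact p = 0.0152, adjusted p = 1).

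Where all 12 exogenous libraries had a peak, enrichment itself could be compared. Of 2720 such regions, 12 lay in member windows. No member region passed for the IDR, the DBD or HIF-1α against HIF-2α (limma on log2 fold, Benjamini-Hochberg adjustment over the 2720 regions), where 2.24%, 3.01% and 3.01% of all regions did. For the IDR 1.69% of all regions passed as higher and 0.551% as lower with the HIF-2α IDR, for the DBD 0.919% and 2.1% with the HIF-2α DBD, and 1.36% and 1.65% in HIF-1α. At the KDM2B start site the IDR difference, HIF-2α minus HIF-1α, was 0.71 on the log2 scale (95% interval 0.01 to 1.40, adjusted p = 0.291). It was 0.46 without HIF-2α replicate 2 (−0.26 to 1.18) and 0.46 without HIF-1α replicate 2 (−0.26 to 1.18), 0.41 without centring (−0.46 to 1.29) and 0.57 with quantile normalization (−0.13 to 1.26). The KDM7A start site differed by −0.66 for the IDR (−1.35 to 0.02, adjusted p = 0.319). It differed by −0.96 without centring (−1.78 to −0.14) and by −0.73 with quantile normalization (−1.41 to −0.04). The intronic KDM6B region differed by −0.51 for the IDR (−1.19 to 0.16), and by −0.70 with quantile normalization (−1.37 to −0.03). The KDM4C start site differed by −0.66 for the DBD (−1.36 to 0.03, adjusted p = 0.341). That value ran from −0.98 without HIF-2α replicate 3 to −0.38 without HIF-2α replicate 1. The IDR difference there, with the HIF-2α DBD minus with the HIF-1α DBD, gave −1.37 (−2.76 to 0.02). This interaction passed at 0 of the 2720 regions. HIF-1α minus HIF-2α was −1.18 at KDM2B (−2.17 to −0.20, adjusted p = 0.191) and 1.15 at KDM7A (0.18 to 2.12, adjusted p = 0.198). The KDM2B value was −0.69 without HIF-2α replicate 2 (−1.76 to 0.38), −0.69 without HIF-1α replicate 2 (−1.76 to 0.38) and −1.63 without HIF-2α replicate 1, and that of KDM7A ran from 0.79 without HIF-1α replicate 2 (−0.28 to 1.85) to 1.73 without HIF-1α replicate 3. At the KDM4B start site the IDR difference was 0.12 (−0.58 to 0.82) and the DBD difference 0.11 (−0.59 to 0.81), −0.27 and −0.28 without HIF-2α replicate 1, so changes within these intervals cannot be told from none.

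**Figure D5:**
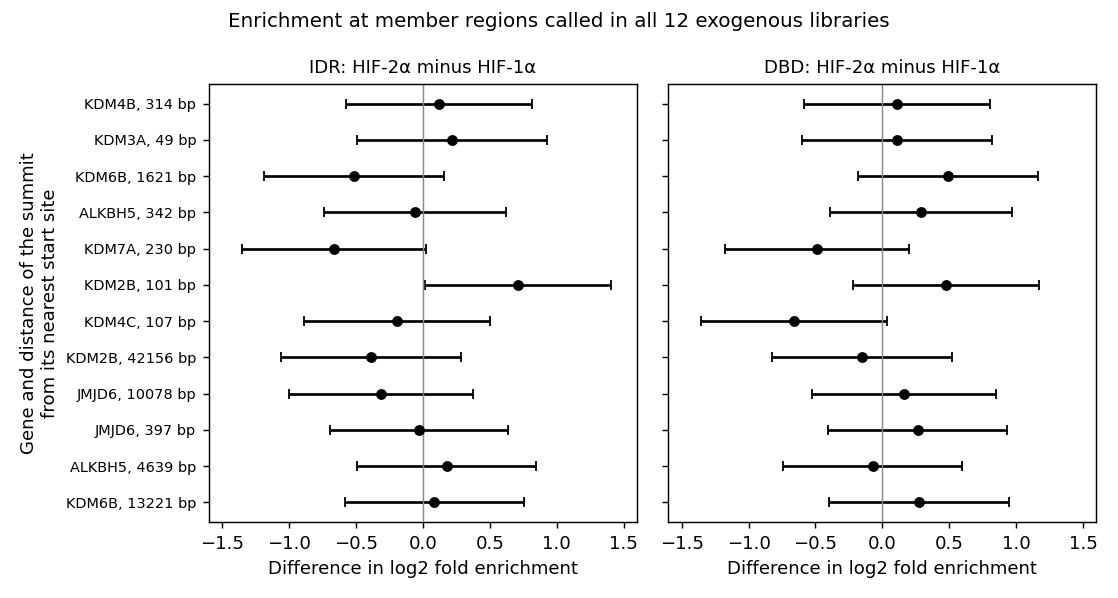
Difference in log2 fold enrichment between exogenous libraries with the HIF-2α and the HIF-1α IDR (left) or DBD (right), 6 against 6, at the 12 member regions called in all 12 libraries, with 95% intervals. Regions are named by gene and by the distance of the summit from a start site of that gene. All intervals include 0 except that of the KDM2B start site for the IDR, 0.71 (0.01 to 1.40). That interval too includes 0 without centring or with quantile normalization. It also does without any 1 of several libraries, HIF-2α replicate 2 and HIF-1α replicate 2 among them. The KDM7A interval for the IDR leaves out 0 without centring or with quantile normalization.

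Another 4 gene lists were read in the same way. Of 33 methyltransferases, writers of the marks that the members remove, 2 passed the test of tagged against WT libraries and 3 had a site in all 15. Of 22 other 2-oxoglutarate oxygenases, 2 passed and 4 had a site in all 15. Of 10 collagen hydroxylases, 4 passed and 6 had a site in all 15, and of 20 well-known HIF target genes 8 passed and 19 had a site in all 15. The members stood at 3 of 35 and 9 of 35, and all genes at 3.46% and 8.23%. The differences between these lists were not tested.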

How the data were processed

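Per the labels and methods, the authors aligned reads to hg38 with Bowtie2 2.3.4.1 (fragments of 10 to 700 bp), called peaks with MACS2 (q of 0.01, maximum gap of 400 bp, duplicates kept) for each anti-V5 library against its IgG library, and removed blacklisted regions with bedtools 2.28.0. The deposited lists give each peak's fold enrichment (a ratio to local background, with the same small constant added to both) with −log10 values of p and q. The 18 IgG libraries enter only through these calls. Fragments at the summit and the depth were solved from fold and −log10 p (Poisson tail, within 0.001, peaks with −log10 p below 100).

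Genes were tested with Fisher's exact test (SciPy 1.17.1), two-sided, and regions overlapping by 1 bp likewise, with Benjamini-Hochberg adjustment at 0.05. Log2 fold, centred on each list's median, was fitted with limma 3.58.1. Ranks, and the cut of lists to equal length, are by −log10 p. Tests were tried on simulated data. The members and gene lists were chosen with earlier results of these data known. Regions named with all values were those called in 15 of 15 tagged and no WT library. Fragment numbers cover counting error only, and the limma intervals the spread between libraries. Alternatives were gene bodies or start sites alone, a −log10 q of 5, lists of equal length, merged summits, no centring, quantile normalization, a replicate block and leaving out each library.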

Additional observations from a re-analysis of the deposited data

How the results depend on the processing

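Members called in tagged against WT libraries, 3 as reported, numbered 0 with gene bodies alone, 0 with start sites alone, 0 with the replicate block, 5 with a −log10 q of at least 5 and 5 with lists of equal length, and 0 to 4 when each library was left out in turn. Over all genes the number was also 0 with gene bodies alone, with start sites alone, with the block and without any 1 WT library. The smallest p that a gene or region can reach is larger without 1 WT library or with the block. It did not pass in these settings, which therefore cannot decide whether the calls hold. Over all regions, too, none passed in those settings. Member regions called, 7 as reported, numbered 0 with the replicate block, 4 with merged summits and 0 to 9 with each library left out. Lists of equal length gave 11 members with a site for HIF-2α/1α, 12 for HIF-1α and 12 for HIF-1α/2α, a difference of 26.3 percentage points between tagged and WT libraries (39.6 as reported) and of −0.48 for the IDR. Start sites alone gave 0 members in WT. Within 100 bp in place of 50 bp, 50.0% of member regions held an HRE (20.7% as reported). Leaving out each library gave 0 to 1 members in WT and 9 to 14 in HIF-2α.

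The numbers of all shared regions past the threshold in limma were 61 for the IDR, 82 for the DBD and 82 for HIF-1α against HIF-2α. Without centring they were 4, 17 and 4, and with the replicate block 102, 129 and 109. With each library left out they ran from 29 to 71, 53 to 90 and 27 to 97, the lowest without HIF-2α replicate 2, HIF-1α/2α replicate 3 and HIF-2α replicate 2. The IDR number also fell by over 1.5 times without HIF-2α replicate 1 (38), HIF-2α/1α replicate 1 (34) or HIF-1α/2α replicate 3 (37), the DBD number without HIF-2α/1α replicate 2 (54), and that of HIF-1α against HIF-2α without HIF-2α replicate 1 (54) or HIF-1α replicate 1 (35), 2 (44) or 3 (51). The cause was not tested. Member regions past the threshold stayed at 0 under all these settings. Libraries with the same replicate number correlated by 0.028 to 0.201 in their deviations, all positive, and 12 of 12 were closest to their own number. The labels do not say what a replicate number shares, so it was left out of the main tests and fits. Only the results with the replicate block allow for it. No result changed sign past a threshold under the alternatives run.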
